A study of Mus musculus with 52 samples.

Results

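The comparison described here sets whole spleens of 6-month-old NZB/W-F1 mice against those of C57BL/6 mice of the same age. Its libraries were chosen by their titles, 3 labelled as total spleen of NZB/W-F1 at 6 months and 2 labelled as total spleen of C57BL/6 at 6 months, out of 16 spleen libraries and 52 libraries of the series. NZB/W-F1 mice are the offspring of New Zealand Black females and New Zealand White males, and the labels name no engineered allele. At 6 months they were labelled as symptomatic with nephritic disease, the stage being set by proteinuria. The C57BL/6 mice were labelled healthy and are an inbred strain that is no parent of the hybrid, so disease and strain background cannot be told apart at this age. All mice were female and of the same age per the labels. Perfusion with PBS, a buffered saline, is named for the hybrids. Whether the C57BL/6 mice were perfused in the same way is not established here, so perfusion may differ with strain. The design names 3 mice of each strain at each age, and 2 C57BL/6 spleens of 6 months are analysed here. The study asks how expression in spleen, kidney and brain differs as the disease appears, and also sampled both strains at 1 and 3 months, before the nephritic stage. Whole tissue was sequenced, so fewer cells of a type and less RNA per cell cannot be told apart in any value below.

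NZB/W-F1 females are a classical model of lupus, in which B cells make antibodies against nuclear antigens and immune complexes injure the kidney. In the spleen such antibodies come from plasma cells and plasmablasts, which form outside follicles or after a germinal centre reaction, where follicular helper T cells select B cells that have switched and mutated their antibody genes. Plasma cells carry a secretory apparatus run by the transcription factors Xbp1, Irf4 and Prdm1 and fill much of their RNA with antibody chains. The mouse spleen also makes red cells, platelets and granulocytes.

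Values are CPM (counts per 1000000 reads, scaled between libraries by the authors), and a change is a log2 fold change of NZB/W-F1 over C57BL/6 from limma on log2(CPM + 0.5), with its standard error (SE) and a Benjamini-Hochberg adjusted p over the 15122 genes tested. A gene is said to be higher, lower or changed where that adjusted p is under 0.05. The whole reads recovered from the values give 11998550, 10189388 and 9207726 reads for the 3 NZB/W-F1 spleens and 9083049 and 5696124 for the 2 C57BL/6 spleens. At these depths a floor of 3 reads corresponds to 0.256 to 0.501 CPM. The 20 B cell genes and the 24 red pulp macrophage genes used to check the tissue were all detected in all 5 libraries, with summed levels of 6104 to 12147 CPM and 5902 to 10354 CPM. The library of NZB/W-F1 replicate 3 goes against its label of a female: it held 13 reads of Xist, the RNA of the silenced X chromosome of females (1.44 CPM, against 781 to 1712 CPM in the other 15 spleens), and the kidney and brain libraries with the same number held 1.38 and 0.857 CPM (against at least 274 and 306 CPM elsewhere). It also held 4759 CPM of the 24 pancreatic enzyme genes, none of them at 0, where the other 4 libraries held 20.8 to 52.2 CPM with 13 to 19 of the 24 at 0. Calls that were lost without this library are named beside the results. Nothing in the labels says more of the animals than a replicate number, and the p-values measure the spread between these samples.

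At 6 months, 598 genes were higher (3.95% of the genes tested) and 198 were lower (1.31%) in the spleens of NZB/W-F1. In 143 of the 598 (23.9%) and 28 of the 198 (14.1%), at least 50% of the 31-base words of the transcripts occur in other genes. The values of such genes are uncertain, and their share among all genes was not computed. The higher genes were led by antibody chains, plasma cell and germinal centre genes, platelet genes, and genes or gene copies with almost no reads in C57BL/6. The lower genes included Chil3, Hba-a2 and a cluster of Trim genes, and in both directions many differences were present at 1 month as well. The median log2 fold change over all genes tested was -0.04. Without the library of NZB/W-F1 replicate 3, 450 genes were higher (2.98%) and 175 lower (1.16%), among them 445 of the 598 and 154 of the 198. The edgeR quasi-likelihood test on the recovered reads called 518 higher and 197 lower (4.73% in all, against 5.26% with limma). Without C57BL/6 replicate 1 the counts were 287 higher and 105 lower, without replicate 2 of that strain 470 higher and 133 lower. Every NZB/W-F1 spleen was above both C57BL/6 spleens in 12.9% of all genes and below both in 11.8%.

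Antibody RNA made up a larger part of the NZB/W-F1 spleens. The 231 antibody genes of the table together took 11.1, 9.74 and 12.1% of the reads in the 3 NZB/W-F1 spleens and 1.88 and 3.77% in the 2 C57BL/6 spleens. Of the 12 constant genes tested, 8 were higher and none was lower, with a median log2 fold change of 1.94 against -0.04 over all genes. They were the constant regions of IgG3, IgG2c, IgG2b, IgG1, IgE and IgM and of the kappa and lambda 2 light chains. Ighg3, the constant gene of IgG3, stood at 16749, 8063 and 4579.7 CPM in the 3 NZB/W-F1 spleens and 235 and 237 CPM in the 2 C57BL/6 spleens. The lowest NZB/W-F1 spleen was far above both C57BL/6 spleens, which were almost equal, while the NZB/W-F1 spleens differed among themselves (limma log2 fold change 5.17, SE 0.64, adjusted p = 0.000139). Ighg3 lies on chromosome 12 at chr12:113356224-113361232 (GRCm38, minus strand) in the heavy chain locus.

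Ighg2c, an IgG2 constant gene, stood at 6487, 6378 and 6464 CPM in the 3 NZB/W-F1 spleens and 502 and 605 CPM in the 2 C57BL/6 spleens, and the NZB/W-F1 spleens were close to each other (limma log2 fold change 3.55, SE 0.35, adjusted p = 1.98e-05). Ighg2b, the constant gene of IgG2b, stood at 2580.4, 2451 and 2860.5 CPM in the 3 NZB/W-F1 spleens and 719 and 823 CPM in the 2 C57BL/6 spleens, again without overlap (limma log2 fold change 1.77, SE 0.26, adjusted p = 0.000576). Ighe, the constant gene of IgE, was scarce in both groups, with 26.4, 6.68 and 7.97 CPM in the 3 NZB/W-F1 spleens and 0.651 and 0.167 CPM in the 2 C57BL/6 spleens. NZB/W-F1 replicate 1 was the high one, and both C57BL/6 values rest on few reads, 7 in all (limma log2 fold change 3.75, SE 0.62, adjusted p = 0.00177). These 4 genes passed the threshold with any single library of the 5 left out.

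Ighg1, the constant gene of IgG1, stood at 5442, 2685 and 2006 CPM in the 3 NZB/W-F1 spleens and 217 and 91.9 CPM in the 2 C57BL/6 spleens (limma log2 fold change 4.44, SE 0.85, adjusted p = 0.00509). Igkc, the kappa light chain constant gene, stood at 38052, 31514 and 34849 CPM in the 3 NZB/W-F1 spleens and 5307 and 9946 CPM in the 2 C57BL/6 spleens (limma log2 fold change 2.26, SE 0.40, adjusted p = 0.00283). Ighm, the constant gene of IgM, stood at 25177, 29611 and 41966 CPM in the 3 NZB/W-F1 spleens and 4099 and 12933 CPM in the 2 C57BL/6 spleens, and C57BL/6 replicate 2, though well above replicate 1, was still below every NZB/W-F1 spleen (limma log2 fold change 2.11, SE 0.53, adjusted p = 0.0318). Iglc2 was higher by a smaller step, with 517, 336 and 487 CPM in NZB/W-F1 and 194 and 164 CPM in C57BL/6 (limma log2 fold change 1.30, SE 0.34, adjusted p = 0.0419). Without C57BL/6 replicate 1, Igkc, Ighm and Iglc2 did not pass (limma, adjusted p 0.079 to 0.49), which left 5 of the 12, and without NZB/W-F1 replicate 3 Ighm and Iglc2 did not, which left 6. Ighm also lost its call without NZB/W-F1 replicate 2 (adjusted p = 0.062), Iglc2 with NZB/W-F1 replicate 1 omitted or with C57BL/6 replicate 2 omitted (0.13 and 0.25), and Ighg1 without C57BL/6 replicate 2 (0.079).

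Igha, the constant gene of IgA, ran the other way without passing the threshold. It stood at 1077, 861 and 1018 CPM in the 3 NZB/W-F1 spleens and 2982 and 2896 CPM in the 2 C57BL/6 spleens, so every NZB/W-F1 spleen was below both C57BL/6 spleens (limma log2 fold change -1.58, SE 0.67, adjusted p = 0.296). Ighd, of IgD, stood at 579, 253 and 516 CPM in NZB/W-F1 and 530.2 and 475 CPM in C57BL/6, and the groups overlapped (limma log2 fold change -0.25, SE 0.32, adjusted p = 0.905). Iglc1 and Iglc3, the other lambda constant genes tested, had log2 fold changes of 0.62 and 0.25 and did not pass (adjusted p 0.53 and 0.919, limma).

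**Figure D1:**
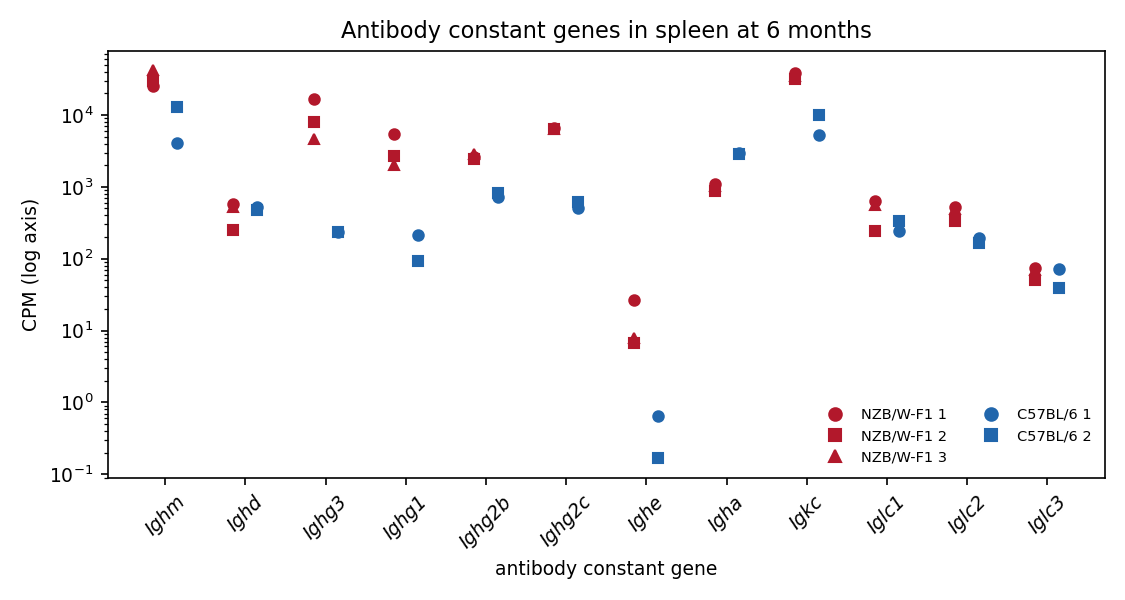
CPM of the 12 antibody constant genes in each 6-month spleen library on a log axis, with NZB/W-F1 in red and C57BL/6 in blue and 1 point per library. The red points lie above the blue ones for 8 genes, Ighg3 from 4579.7 to 16749 CPM against 235 and 237 CPM, while Igha is the gene with all red points below the blue.

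Per kilobase of exon, the makeup of the IgG RNA differed between the groups as well. Of the 4 IgG constant genes, Ighg3 made up 45.6, 32.2 and 21.3% of the CPM per kilobase in the 3 NZB/W-F1 spleens and 11.3 and 10.6% in the 2 C57BL/6 spleens. Ighg2b made up 6.59, 9.18 and 12.5% in NZB/W-F1 and 32.6 and 34.4% in C57BL/6, so its share was lower although its level was higher. The share of Ighg2c overlapped between the groups, at 33.5, 48.2 and 57.1% against 45.9 and 51.1%, and so did that of Ighg1, at 14.4, 10.4 and 9.06% against 10.1 and 3.97%. These shares are descriptions with no test, and the reads of each gene were counted against the mm10 reference, which is the C57BL/6J assembly. How reads of other heavy chain haplotypes aligned to it was not tested. Of the 105 heavy chain variable segments tested, 43 were higher and 14 lower (median 1.61), and of the 97 kappa segments 43 were higher and none lower (median 2.00). Segments of 1 family share much sequence, so single segments are uncertain and are not named.

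Genes of plasma cells were higher along with the antibody genes. Of 19 plasma cell genes tested, 14 were higher and none lower, with a median log2 fold change of 1.51, and every member had a positive value. Summed over the list, the 3 NZB/W-F1 spleens held 12304, 14687 and 16177 CPM and the 2 C57BL/6 spleens 3869 and 4743 CPM. The higher genes were the transcription factors Xbp1, Irf4 and Prdm1, the coactivator Pou2af1, the elongation cofactor Eaf2, the surface proteoglycan Sdc1 (CD138), the J chain that joins IgM and IgA into polymers, and 7 proteins of the endoplasmic reticulum.

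Creld2, a protein induced by stress of the endoplasmic reticulum, stood at 237, 261 and 172 CPM in the 3 NZB/W-F1 spleens and 48.3 and 75.2 CPM in the 2 C57BL/6 spleens (limma log2 fold change 1.86, SE 0.22, adjusted p = 0.000109). Mzb1, a cofactor of the chaperones that fold antibody chains, stood at 577, 476 and 466 CPM in the 3 NZB/W-F1 spleens and 149.6 and 152 CPM in the 2 C57BL/6 spleens (limma log2 fold change 1.74, SE 0.22, adjusted p = 0.000148). Its exons overlap a gene on the other strand, and the library kit does not mark strand. Edem1, which extracts misfolded glycoproteins for degradation, stood at 524, 644 and 621 CPM in the 3 NZB/W-F1 spleens and 178 and 270.3 CPM in the 2 C57BL/6 spleens (limma log2 fold change 1.43, SE 0.20, adjusted p = 0.00047). All 3 genes separated the groups without overlap.

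Eaf2 stood at 62.6, 61.2 and 55.1 CPM in the 3 NZB/W-F1 spleens and 8.90 and 9.03 CPM in the 2 C57BL/6 spleens, both groups being tight (limma log2 fold change 2.67, SE 0.38, adjusted p = 0.000497). Xbp1, which drives expansion of the secretory apparatus, stood at 573, 722 and 636 CPM in the 3 NZB/W-F1 spleens and 182 and 277 CPM in the 2 C57BL/6 spleens (limma log2 fold change 1.51, SE 0.23, adjusted p = 0.000971). Jchain was the most abundant member, with 7656, 9623 and 11472 CPM in the 3 NZB/W-F1 spleens and 1930.3 and 2659 CPM in the 2 C57BL/6 spleens, and its lowest NZB/W-F1 value was well above both controls (limma log2 fold change 2.06, SE 0.38, adjusted p = 0.00436). Sdc1 stood at 112, 86.5 and 121 CPM in NZB/W-F1 and 22.4 and 31.9 CPM in C57BL/6 (limma log2 fold change 1.96, SE 0.35, adjusted p = 0.00301) and Prdm1 at 44.9, 56.4 and 63.3 CPM in NZB/W-F1 and 13.1 and 26.4 CPM in C57BL/6 (limma log2 fold change 1.52, SE 0.31, adjusted p = 0.00831).

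The other members that passed were Edem2, Txndc5, Irf4, Derl3, Fkbp11 and Pou2af1, with log2 fold changes from 0.82 (Pou2af1) to 2.62 (Fkbp11). Slamf7, Ell2, Tnfrsf17, Tnfrsf13b and Tent5c did not pass; the nearest, Slamf7, had a log2 fold change of 0.71 (limma, adjusted p = 0.051). Creld2, Mzb1, Edem1, Edem2, Eaf2, Xbp1 and Txndc5 passed with any single library left out. The other 7 lost their call without C57BL/6 replicate 1 (limma, adjusted p 0.056 to 0.39). Pou2af1 also lost it without NZB/W-F1 replicate 1 or 3, and Pou2af1 and Fkbp11 without C57BL/6 replicate 2.

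Of 30 genes of the secretory pathway and the unfolded protein response, 8 were higher and none lower, with a median of 0.65. Hsp90b1, the chaperone GRP94, stood at 1111, 1599.6 and 1172 CPM in the 3 NZB/W-F1 spleens and 461 and 496 CPM in the 2 C57BL/6 spleens (limma log2 fold change 1.42, SE 0.24, adjusted p = 0.00196). Ssr4, of the complex that feeds new chains into the endoplasmic reticulum, stood at 261, 227 and 235 CPM in the 3 NZB/W-F1 spleens and 119.8 and 106 CPM in the 2 C57BL/6 spleens (limma log2 fold change 1.09, SE 0.14, adjusted p = 0.000218). Dnajb11, a co-chaperone of Hspa5, stood at 200.4, 227 and 179.8 CPM in the 3 NZB/W-F1 spleens and 105 and 110.2 CPM in the 2 C57BL/6 spleens (limma log2 fold change 0.90, SE 0.16, adjusted p = 0.00268).

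Spcs3, a subunit of signal peptidase, stood at 278, 419 and 412 CPM in NZB/W-F1 and 164 and 173 CPM in C57BL/6 (limma log2 fold change 1.11, SE 0.24, adjusted p = 0.0116). The other 4 were Manf, Pdia6, Hyou1 and Pdia4, folding factors with log2 fold changes of 0.86 to 1.01. Hspa5, the central chaperone BiP, had a log2 fold change of 0.68 and did not pass (limma, adjusted p = 0.108). Without C57BL/6 replicate 1, 3 of the 8 calls were made, and 4 each without C57BL/6 replicate 2 or NZB/W-F1 replicate 2. Without NZB/W-F1 replicate 1 Pdia6, Hyou1 and Pdia4 did not pass. Hsp90b1, Ssr4 and Dnajb11 passed under every omission of a library.

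Promoters of this group are described for a sequence element that several members carry, whether or not they were higher. Whether the element has a part in the differences was not tested. The element searched was the endoplasmic reticulum stress response element, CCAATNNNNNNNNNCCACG, read on both strands of the 300 bases from 250 before to 50 after the start of each gene in RefSeq (GRCm38.p6). It was found in 39 of 32851 promoters (0.119%) and in 18 of the 11016 tested genes with a promoter in the table (0.163%). Of the 42 tested members of the plasma cell and secretory lists with a promoter, 9 held it (21.4%): Calr, Canx, Creld2, Derl3, Dnajc3, Hsp90b1, Hspa5, Pdia6 and Syvn1. Of the 18 such members that were higher, 4 held it (22.2%), and their promoters are printed here, 5′ to 3′ on the gene's strand, with the fixed letters of the element in capitals.
Creld2, chr15:88819396-88819695, plus strand: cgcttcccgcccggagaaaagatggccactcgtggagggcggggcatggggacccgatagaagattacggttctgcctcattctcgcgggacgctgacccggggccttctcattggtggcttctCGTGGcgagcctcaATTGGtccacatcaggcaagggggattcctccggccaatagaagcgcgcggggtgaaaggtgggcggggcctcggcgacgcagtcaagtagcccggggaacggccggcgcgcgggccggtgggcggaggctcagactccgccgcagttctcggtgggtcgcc
Derl3, chr10:75893148-75893447, plus strand: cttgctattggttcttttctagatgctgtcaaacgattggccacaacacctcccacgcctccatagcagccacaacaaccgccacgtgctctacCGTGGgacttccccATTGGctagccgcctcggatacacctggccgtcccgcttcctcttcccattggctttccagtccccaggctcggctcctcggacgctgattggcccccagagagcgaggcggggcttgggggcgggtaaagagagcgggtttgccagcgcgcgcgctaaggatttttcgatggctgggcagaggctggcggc
Hsp90b1, chr10:86705395-86705694, minus strand: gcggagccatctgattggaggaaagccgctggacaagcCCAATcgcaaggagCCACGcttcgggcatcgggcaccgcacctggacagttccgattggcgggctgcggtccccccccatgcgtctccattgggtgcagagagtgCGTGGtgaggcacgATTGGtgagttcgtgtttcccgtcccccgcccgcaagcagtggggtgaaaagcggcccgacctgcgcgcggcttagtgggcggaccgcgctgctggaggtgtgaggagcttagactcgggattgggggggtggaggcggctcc
Pdia6, chr12:17266339-17266638, plus strand: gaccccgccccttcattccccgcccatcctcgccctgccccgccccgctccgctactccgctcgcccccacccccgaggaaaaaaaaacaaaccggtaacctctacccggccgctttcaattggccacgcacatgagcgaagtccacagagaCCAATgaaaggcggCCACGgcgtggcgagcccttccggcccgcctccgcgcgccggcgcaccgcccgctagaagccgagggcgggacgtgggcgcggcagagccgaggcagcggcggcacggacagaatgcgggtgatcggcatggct
The match begins 126 bases before the start of Creld2 and 156 bases before that of Derl3, in both as the reverse complement. Hsp90b1 holds 2 matches, 212 bases before its start as written and 107 bases before it as the reverse complement, and Pdia6 holds 1 match 98 bases before its start. The log2 fold changes of the 4 genes were 1.86, 2.16, 1.42 and 0.97. The other 5 genes with the element had log2 fold changes from -0.11 (Canx) to 0.71 (Dnajc3), and none of them passed. A match is a description of the letters and not of binding.

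Germinal centre genes were higher in part. Of 16 tested, 6 were higher and none lower, with a median of 1.17. S1pr2, the receptor that holds germinal centre B cells in the follicle, stood at 61.6, 36.96 and 39.3 CPM in the 3 NZB/W-F1 spleens and 8.58 and 14.04 CPM in the 2 C57BL/6 spleens (limma log2 fold change 1.98, SE 0.31, adjusted p = 0.00106). Gcsam, a signalling adaptor of germinal centre B cells, stood at 45.9, 47.9 and 47.7 CPM in the 3 NZB/W-F1 spleens and 13.6 and 15.04 CPM in the 2 C57BL/6 spleens (limma log2 fold change 1.69, SE 0.30, adjusted p = 0.00311). Mybl1, a transcription factor of dividing germinal centre B cells, stood at 38.6, 39.3 and 38.1 CPM in the 3 NZB/W-F1 spleens and 8.68 and 7.02 CPM in the 2 C57BL/6 spleens (limma log2 fold change 2.24, SE 0.43, adjusted p = 0.00547). In each of these genes all NZB/W-F1 spleens were above both C57BL/6 spleens.

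Mef2b, a transcription factor upstream of Bcl6, stood at 49.1, 19.2 and 21.3 CPM in NZB/W-F1 and 4.23 and 2.01 CPM in C57BL/6 (limma log2 fold change 3.01, SE 0.66, adjusted p = 0.0131); its exons overlap those of Borcs8, so reads of the pair cannot be told apart without strand. Basp1 also passed and had a log2 fold change of 0.85, and lost its call without NZB/W-F1 replicate 3 (limma, adjusted p = 0.12). Bcl6, the master regulator of the germinal centre, had a log2 fold change of 0.09 (limma, adjusted p = 0.964), and Fas, a surface marker of these cells, 0.93 (adjusted p = 0.29). Only S1pr2 among the 6 passed with any single library left out. The calls were 3 without NZB/W-F1 replicate 1 and without either C57BL/6 library, 4 without NZB/W-F1 replicate 3 and 7 without NZB/W-F1 replicate 2.

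Among genes of follicular helper T cells, 3 of 14 were higher and none lower (median 0.54). Pdcd1, the receptor PD-1, stood at 40.4, 20.1 and 30.01 CPM in the 3 NZB/W-F1 spleens and 8.25 and 7.36 CPM in the 2 C57BL/6 spleens (limma log2 fold change 1.83, SE 0.33, adjusted p = 0.00297). Tigit, another inhibitory receptor, stood at 19.4, 18.5 and 21.5 CPM in the 3 NZB/W-F1 spleens and 4.45 and 8.86 CPM in the 2 C57BL/6 spleens (limma log2 fold change 1.57, SE 0.30, adjusted p = 0.00492). Il21, the cytokine that these cells give to B cells, was scarce, at 6.73, 6.68 and 10.3 CPM in NZB/W-F1 and 0.326 and 1.84 CPM in C57BL/6, and passed with limma (limma log2 fold change 2.57, SE 0.55, adjusted p = 0.0116) but not with edgeR (adjusted p = 0.054). The chemokine receptor Cxcr5 and the costimulator Icos did not pass, with log2 fold changes of -0.41 and 0.86 (limma, adjusted p 0.807 and 0.192). Without C57BL/6 replicate 1, 1 of the 3 calls was made, that of Pdcd1.

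In the other lymphocyte lists few genes passed. Of 11 genes of the SLAM family of receptors between lymphocytes, Slamf1 and Slamf9 were higher. Slamf1 stood at 51.99, 57.3 and 49.9 CPM in the 3 NZB/W-F1 spleens and 16.9 and 19.2 CPM in the 2 C57BL/6 spleens, with no overlap and with a call under every omission of a library (limma log2 fold change 1.53, SE 0.16, adjusted p = 3.65e-05). Slamf9 had a log2 fold change of 1.56 ± 0.30 SE and lost its call without C57BL/6 replicate 1 (limma, adjusted p = 0.12). Of 15 genes of marginal zone and B1 B cells, Mzb1, Bhlhe41 and Zbtb32 were higher (median 0.39), and without C57BL/6 replicate 1 only Mzb1 was.

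Of 16 genes of cytotoxic or exhausted T cells, the inhibitory receptor Lag3 and the exhaustion factor Tox were higher. The chemokine Ccl5 was lower. The median of the list was -0.39 (-0.59 without NZB/W-F1 replicate 3), against -0.04 over all genes. Positive values were held by 6 of the 16, a share near that over all genes (6604 of the 15122 tested). Lag3 stood at 60.6, 54.1 and 69.9 CPM in the 3 NZB/W-F1 spleens and 16.6 and 27.6 CPM in the 2 C57BL/6 spleens (limma log2 fold change 1.49, SE 0.27, adjusted p = 0.00372) and Ccl5 at 47.1, 32.6 and 59.3 CPM in NZB/W-F1 and 85.8 and 96.8 CPM in C57BL/6 (limma log2 fold change -1.01, SE 0.24, adjusted p = 0.0241), both without overlap. The calls of Lag3, Tox and Ccl5 were lost without C57BL/6 replicate 1 (adjusted p 0.11, 0.17 and 0.12), and Tox and Ccl5 lost theirs under other omissions too. Without NZB/W-F1 replicate 3 the limma adjusted p of Tox was 0.072. Of 11 regulatory T cell genes, Ikzf2, the transcription factor Helios, was higher, with a log2 fold change of 1.01 ± 0.25 SE, and it lost its call without any of 4 libraries, the exception being NZB/W-F1 replicate 2.

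Platelet and megakaryocyte genes formed the other large group. Of 16 tested, 10 were higher and none lower, with a median of 1.88, and all 16 values were positive. Summed, they stood at 3581, 4495 and 3534 CPM in the 3 NZB/W-F1 spleens and at 792 and 1341 CPM in the 2 C57BL/6 spleens. Tubb1, the tubulin of the platelet's marginal band, stood at 212, 226 and 205 CPM in the 3 NZB/W-F1 spleens and 33.3 and 63.2 CPM in the 2 C57BL/6 spleens (limma log2 fold change 2.21, SE 0.36, adjusted p = 0.00156). Itgb3, the beta chain of the fibrinogen receptor, stood at 506, 647 and 551 CPM in the 3 NZB/W-F1 spleens and 109 and 211 CPM in the 2 C57BL/6 spleens (limma log2 fold change 1.89, SE 0.34, adjusted p = 0.00357). The NZB/W-F1 spleens were close to each other in both genes, and C57BL/6 replicate 2 was the higher of its group.

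Ppbp, the precursor of platelet chemokines, was the most abundant of the called members, at 1090.0, 1638 and 1192 CPM in NZB/W-F1 and 218 and 351 CPM in C57BL/6 (limma log2 fold change 2.22, SE 0.48, adjusted p = 0.013). Itga2b, Gp1ba, Gp5, Gp6, Gp9 and Vwf, which encode adhesion receptors of platelets and the von Willebrand factor they bind, had log2 fold changes of 1.46 to 2.02. Pf4, the platelet factor of the alpha granules, had a log2 fold change of 1.79 and did not pass (limma, adjusted p = 0.0585). This group depends on C57BL/6 replicate 1: without it Tubb1 alone passed and the others had adjusted p of 0.099 to 0.32. Without NZB/W-F1 replicate 1 the calls of Gp1ba, Vwf and Gp9 were lost, without replicate 2 those of Gp6, Vwf and Gp9, without replicate 3 that of Gp6, and without C57BL/6 replicate 2 that of Gp9.

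**Figure D2:**
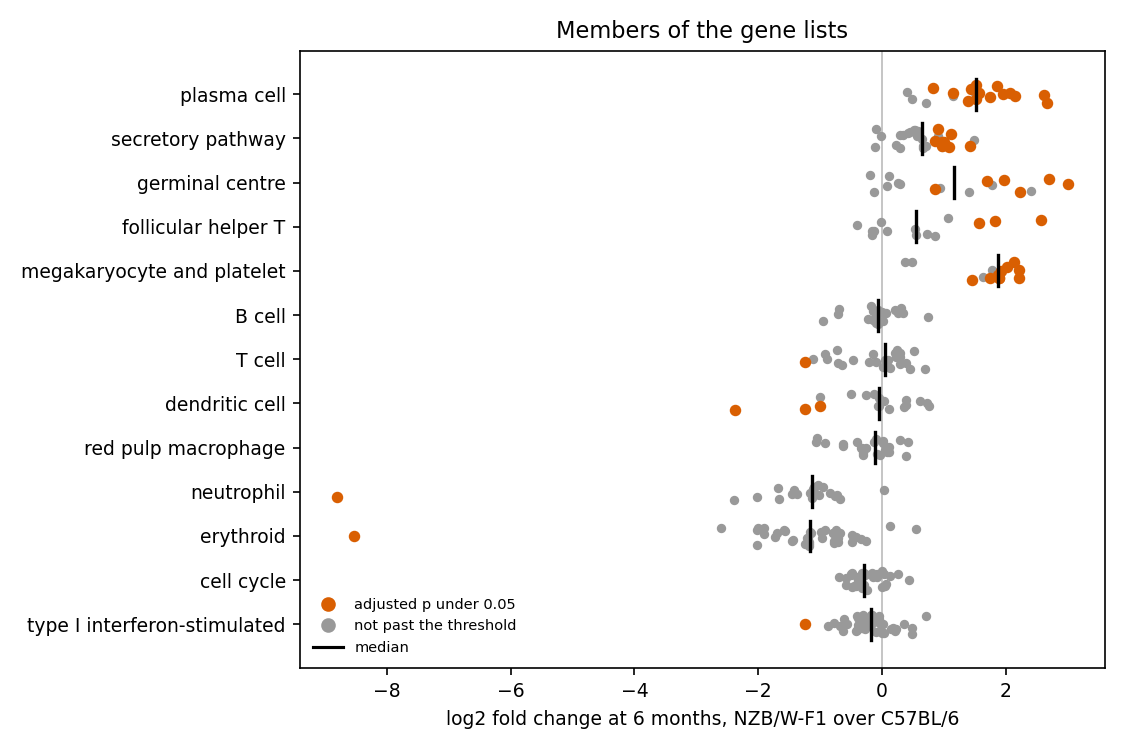
Log2 fold change of NZB/W-F1 over C57BL/6 at 6 months for each tested member of 13 gene lists, 1 point per gene, with the median as a black bar and genes past an adjusted p of 0.05 in orange. The medians of the plasma cell (1.51), germinal centre (1.17) and megakaryocyte (1.88) lists lie to the right of 0, and those of the B cell (-0.07) and T cell (0.04) lists lie near it.

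Of the general B and T cell markers 1 passed. Of 20 B cell genes none passed in either direction, with a median of -0.07. Ms4a1, which encodes CD20, had a log2 fold change of -0.06 ± 0.33 SE (limma, adjusted p = 0.99). Of 25 T cell genes, Cd8a alone was lower (median 0.04). Cd8a stood at 34.8, 15.1 and 32.9 CPM in the 3 NZB/W-F1 spleens and 73.9 and 52.7 CPM in the 2 C57BL/6 spleens, without overlap (limma log2 fold change -1.25, SE 0.30, adjusted p = 0.0224), and its partner chain Cd8b1 had a log2 fold change of -1.12 and did not pass (limma, adjusted p = 0.119). Cd8a lost its call without C57BL/6 replicate 1 (adjusted p = 0.30).

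Of 18 dendritic cell genes, 3 were lower and none higher (median -0.05). Cd209a, a lectin of conventional and monocyte-derived dendritic cells, stood at 2.13, 0.731 and 1.88 CPM in the 3 NZB/W-F1 spleens and 7.49 and 12.7 CPM in the 2 C57BL/6 spleens (limma log2 fold change -2.38, SE 0.40, adjusted p = 0.00199). Zbtb46, the transcription factor of conventional dendritic cells, stood at 27.9, 20.5 and 29.8 CPM in the 3 NZB/W-F1 spleens and 51.02 and 53.2 CPM in the 2 C57BL/6 spleens (limma log2 fold change -1.004, SE 0.20, adjusted p = 0.00589). The third was Cd8a, which marks a dendritic cell subset as well as T cells. Both Cd209a and Zbtb46 separated the groups, and Cd209a kept its call under every omission of a library. Zbtb46 lost its call without either C57BL/6 library (limma, adjusted p 0.056 and 0.057). None of 24 red pulp macrophage genes passed (median -0.12).

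Of 24 genes of NK cells and Ly49 receptors, Klra17 and Klrb1b were higher and Klra3 and Styk1 lower. The median was -0.36 (-0.74 without NZB/W-F1 replicate 3), and 7 of the 24 values were positive, against 6604 of the 15122 genes tested. Klra17 was also the 1 higher gene in a list of 14 genes of plasmacytoid dendritic cells. Klra17, a receptor of the Ly49 family, stood at 15.002, 13.3 and 30.7 CPM in the 3 NZB/W-F1 spleens and 1.85 and 2.34 CPM in the 2 C57BL/6 spleens, and passed under every omission (limma log2 fold change 2.86, SE 0.33, adjusted p = 8.48e-05). Klra3 was at or near 0 in NZB/W-F1, with 0, 0 and 0.221 CPM in NZB/W-F1 and 2.17 and 2.01 CPM in C57BL/6; 43.5% of its 31-base words occur elsewhere in the annotated transcripts, so its value is uncertain. The 2 strains are known to carry different sets of Ly49 genes, as background. Klra3, Klrb1b and Styk1 lost their calls without C57BL/6 replicate 1 and under at least 1 other omission. Without NZB/W-F1 replicate 3 the limma adjusted p was 0.14 for Klrb1b and 0.12 for Styk1.

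The summed levels of red cell, granulocyte and division genes overlapped between the groups. The 39 erythroid genes tested summed to 6632, 41109 and 2037 CPM in the 3 NZB/W-F1 spleens and 37996 and 12072 CPM in the 2 C57BL/6 spleens. Hba-a2 was the 1 member that passed, and the median was -1.17. That median was -0.13 without NZB/W-F1 replicate 3, -0.20 without C57BL/6 replicate 1, -2.12 without C57BL/6 replicate 2 and -2.28 without NZB/W-F1 replicate 2. Hbb-bs, an adult beta globin, had a log2 fold change of -1.90 ± 1.16 SE and did not pass (limma, adjusted p = 0.589).

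The 22 neutrophil genes summed to 834, 982 and 3536 CPM in NZB/W-F1 and 2775 and 5542 CPM in C57BL/6, with a median of -1.12 and Chil3 as the 1 gene that passed. Without NZB/W-F1 replicate 3, Retnlg (limma, adjusted p = 0.014) and Mmp9 passed as well, 3 lower genes in all. The median was then -1.65, against -1.82 without C57BL/6 replicate 1 and -0.48 without C57BL/6 replicate 2. S100a9, a calcium-binding protein of neutrophils, had a log2 fold change of -1.66 ± 0.88 SE (limma, adjusted p = 0.477). The 31 cell cycle genes summed to 3238, 9209 and 2380 CPM in NZB/W-F1 and 6686 and 3451 CPM in C57BL/6, and none passed (median -0.29). The median was 0.15 without NZB/W-F1 replicate 3, 0.13 without C57BL/6 replicate 1, -0.68 without C57BL/6 replicate 2 and -0.81 without NZB/W-F1 replicate 2. The libraries high in erythroid genes, NZB/W-F1 replicate 2 and C57BL/6 replicate 1, were also the highest in cell cycle genes. Adipocyte genes summed to 272, 368 and 41.6 CPM in NZB/W-F1 and 709 and 424 CPM in C57BL/6, and mesothelium genes to 49.7, 93.9 and 68.5 CPM against 128 and 116 CPM. The part of these differences in the results above was not tested.

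Of the remaining lists, Fcer1a, the alpha chain of the IgE receptor, was lower among 11 mast cell and basophil genes, with a log2 fold change of -1.65 ± 0.38 SE (limma, adjusted p = 0.0184); its call held when NZB/W-F1 replicate 2 was the library left out, and in no other omission (0.052 to 0.17). Among 17 T cell receptor beta segments 4 were lower and none higher. No gene passed among 13 stem and progenitor, 24 stromal and endothelial, 22 nucleic acid sensing, 13 heat shock, 17 immediate early and 10 mitochondrial genes, with medians from -0.59 (mitochondrial) to 0.36 (immediate early).

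**Figure D3:**
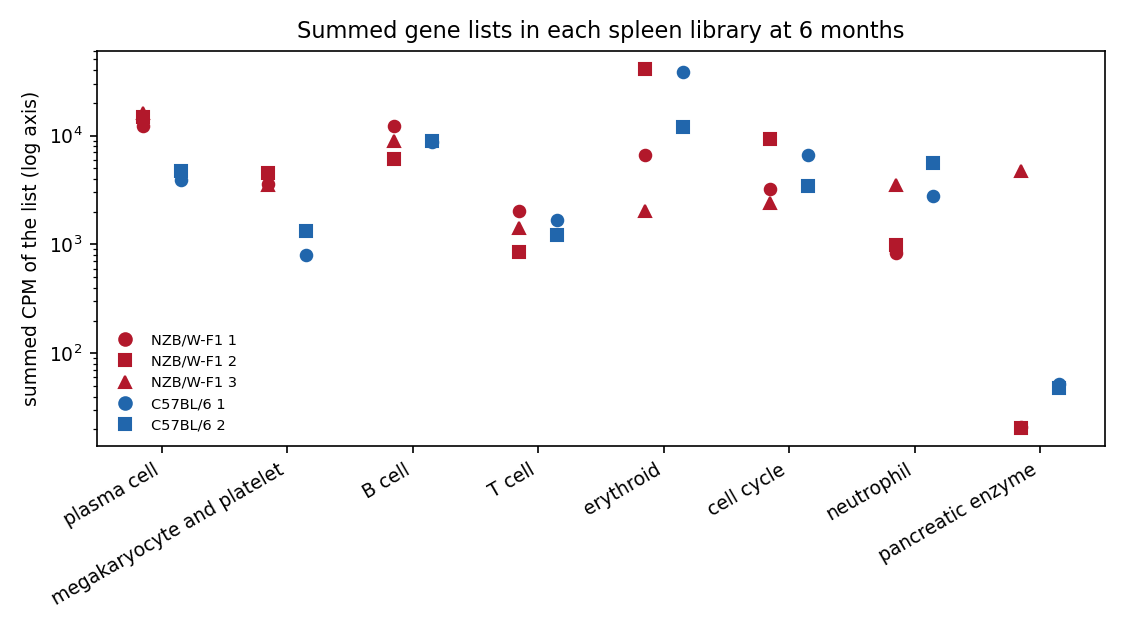
Summed CPM of 8 gene lists in each 6-month spleen library on a log axis, with NZB/W-F1 in red, C57BL/6 in blue and 1 point per library. Plasma cell and megakaryocyte sums separate the groups (12304 to 16177 CPM against 3869 and 4743 CPM for plasma cells), erythroid and cell cycle sums overlap, and the pancreatic enzyme sum is high in NZB/W-F1 replicate 3 alone (4759 CPM).

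Interferon-stimulated genes, which are raised in the blood of many patients with lupus, hardly passed the test at all in these spleens. Of 40 genes stimulated by type I interferon none was higher and Oasl1 was lower, with a median of -0.18. Oasl1, a regulator of the interferon response, stood at 7.33, 11.4 and 6.75 CPM in the 3 NZB/W-F1 spleens and 18.7 and 21.9 CPM in the 2 C57BL/6 spleens (limma log2 fold change -1.24, SE 0.32, adjusted p = 0.0338). Its call was lost when any library other than NZB/W-F1 replicate 2 was left out (adjusted p 0.10 to 0.22, limma). Of 20 genes induced by interferon gamma, the GTPase Igtp was higher and the GTPase Tgtp2 lower (median 0.26). Igtp stood at 125, 213 and 119.8 CPM in the 3 NZB/W-F1 spleens and 53.5 and 61.5 CPM in the 2 C57BL/6 spleens, without overlap and with a call under every omission (limma log2 fold change 1.35, SE 0.22, adjusted p = 0.00178); its exons overlap those of Irgm2. Tgtp2 had a log2 fold change of -2.18, and 90.5% of its 31-base words occur elsewhere, most in Tgtp1, so its value is uncertain.

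Of 14 genes of the Ifi200 family of DNA-binding proteins induced by interferon, 2 were higher and the median was -0.58. Ifi202b, a candidate gene of a lupus interval of the NZB strain, stood at 26.9, 52.4 and 74.6 CPM in the 3 NZB/W-F1 spleens and 0 and 0 CPM in the 2 C57BL/6 spleens. It was present in every NZB/W-F1 spleen and had no read in either C57BL/6 spleen, which makes it at least 124-fold higher against a floor of 3 reads per library (limma, adjusted p = 2.53e-08). Ifi202b lies on chromosome 1 at chr1:173962568-173982744 (GRCm38, minus strand). Its 31-base words are nearly all its own, with 1.20% found elsewhere. The other was the pseudogene Ifi203-ps, with a log2 fold change of 1.49 ± 0.36 SE, whose call was lost without NZB/W-F1 replicate 3 or either C57BL/6 library (limma, adjusted p 0.099, 0.20 and 0.11).

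Genes of the major histocompatibility complex differed in both directions. H2-Ea-ps, the gene of the class II E alpha chain, which mice of the haplotype of C57BL/6 do not express, stood at 1686, 805 and 1257 CPM in the 3 NZB/W-F1 spleens and 0.109 and 0 CPM in the 2 C57BL/6 spleens. The C57BL/6 spleens held 1 read of it between them against 38846 in NZB/W-F1, a ratio of 19452 with a 95% counting interval of 3491 to 768344 (limma, adjusted p = 1.24e-10). It lies on chromosome 17 at chr17:34341959-34344645 (GRCm38, minus strand). Of 12 class II genes it was the 1 that was higher, and H2-Eb2 the 1 that was lower (29.8, 15.3 and 25.2 CPM in NZB/W-F1 and 62.1 and 66.7 CPM in C57BL/6; limma log2 fold change -1.49, SE 0.34, adjusted p = 0.0164). H2-Eb2 lost its call without NZB/W-F1 replicate 2 or either C57BL/6 library. The abundant class II genes Cd74, H2-Aa and H2-Eb1 had log2 fold changes of 0.06, -0.07 and 0.22 and did not pass.

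Of 23 class I genes, H2-Q1, H2-Q2, H2-Q10 and H2-T3 were higher and H2-Q7 and H2-Q6 lower. H2-Q1 stood at 19.6, 16.2 and 19.2 CPM in NZB/W-F1 and 0.217 and 0 CPM in C57BL/6 and H2-Q2 at 32.9, 22.9 and 26.2 CPM in NZB/W-F1 and 1.41 and 1.67 CPM in C57BL/6 (limma log2 fold change 3.76, SE 0.36, adjusted p = 1.46e-05). H2-T3 had no read in C57BL/6 and 4.43, 3.45 and 3.88 CPM in NZB/W-F1, at least 9.47-fold higher against the same floor. H2-Q7 stood at 108, 50.7 and 63.7 CPM in NZB/W-F1 and 222 and 223 CPM in C57BL/6 (limma log2 fold change -1.66, SE 0.39, adjusted p = 0.0198). The calls of H2-Q7 and H2-Q6 were both lost without NZB/W-F1 replicate 2, NZB/W-F1 replicate 3 or either C57BL/6 library, and that of H2-Q10 without C57BL/6 replicate 1. These genes are near copies of each other and are highly variable between strains, so reads of one can be counted on another, and their values are uncertain. The complement gene C4a, a copy of C4b, stood at 9.89, 8.46 and 12.4 CPM in NZB/W-F1 and 0.868 and 0.669 CPM in C57BL/6 (limma log2 fold change 3.07, SE 0.30, adjusted p = 1.48e-05), with 43.3% of its words found elsewhere; it was the 1 of 24 complement and Fc receptor genes that changed.

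Many of the largest single differences were between presence and near absence. Beyond the genes above, Npy, the gene of neuropeptide Y, stood at 47.1, 51.3 and 39.7 CPM in NZB/W-F1 and 0.109 and 0 CPM in C57BL/6, a ratio of 703 with a 95% counting interval of 126 to 27769, since C57BL/6 held 1 read. Pld5, a member of the phospholipase D family, stood at 12.96, 17.6 and 22.9 CPM in NZB/W-F1 and 0.109 and 0 CPM in C57BL/6 (limma, adjusted p = 8.40e-07). Npy and Pld5 share under 1% of their 31-base words with other transcripts. They were also higher at 1 and 3 months.

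Another 5 of the largest higher genes were copies of abundant genes. Rps2-ps13, Ftl2-ps and Rps3a3 are processed pseudogenes, and Eno1b and Tpm3-rs7 are close relatives of Eno1 and Tpm3; 78.4 to 94.5% of their words occur elsewhere, so their values are uncertain. Ftl2-ps stood at 74.2, 55.2 and 53.4 CPM in NZB/W-F1 and 0.217 and 0.167 CPM in C57BL/6, and Ftl1, the ferritin light chain gene that it copies, at 142, 151 and 143 CPM in NZB/W-F1 and 306 and 331 CPM in C57BL/6. Ftl1 was lower in every NZB/W-F1 spleen (limma log2 fold change -1.13, SE 0.20, adjusted p = 0.00251). Rps2, Rps3a1, Eno1 and Tpm3 had log2 fold changes of -0.75, -0.87, -0.57 and -0.32 and did not pass. Of 326 processed pseudogenes tested 108 were higher and 5 lower, while of 13387 protein-coding genes 330 were higher and 138 lower.

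Among the lower genes Chil3 led. It encodes a chitinase-like protein of macrophages and neutrophils and stood at 0, 0 and 0 CPM in NZB/W-F1 and 170.4 and 293 CPM in C57BL/6, at least 772-fold lower in NZB/W-F1 against a floor of 3 reads per library (limma, adjusted p = 6.48e-07). It lies on chromosome 3 at chr3:106147554-106167564 (GRCm38, minus strand), and 41.5% of its words occur elsewhere, most in Chil4. Hba-a2, an alpha globin gene, stood at 0.256, 0.418 and 0 CPM in NZB/W-F1 and 563 and 121 CPM in C57BL/6, but 92.6% of its words are shared, most with Hba-a1. Hba-a1 had a log2 fold change of -1.46 and did not pass (limma, adjusted p = 0.783).

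Several of the lower genes are neighbours on chromosome 7. In the window chr7:104000001-105000000 (GRCm38), 7 of the 13 genes tested were lower and 2 higher. They were Trim12a, Trim5, Trim30b, Trim30d and Trim34a among the lower and Trim34b among the higher, members of a family that includes factors against retroviruses. Trim12a stood at 0.17, 0.104 and 0 CPM in NZB/W-F1 and 87.4 and 69.2 CPM in C57BL/6 (limma log2 fold change -7.06, SE 0.25, adjusted p = 9.51e-10). Trim30d stood at 1.53, 4.18 and 5.65 CPM in NZB/W-F1 and 51.6 and 68.4 CPM in C57BL/6 (limma log2 fold change -3.95, SE 0.37, adjusted p = 1.09e-05). Trim34a and Trim34b went opposite ways, with log2 fold changes of -2.58 and 3.02, and 48.8 and 69.05% of their words are shared, most with each other.

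The rest of the 12 largest lower genes had little in common. Gabra3, a subunit of a receptor for GABA, stood at 0.256, 0.626 and 0 CPM in NZB/W-F1 and 23.6 and 35.4 CPM in C57BL/6 (limma log2 fold change -5.29, SE 0.52, adjusted p = 1.63e-05). Ffar1, a receptor for fatty acids, stood at 1.19, 1.15 and 0.443 CPM in NZB/W-F1 and 21.6 and 19.4 CPM in C57BL/6 (limma log2 fold change -3.92, SE 0.46, adjusted p = 8.88e-05). Eps8l1, Vmn2r97 and Olfr1033 were at or under 0.664 CPM in every NZB/W-F1 spleen and at 5.32 CPM or above in both C57BL/6 spleens. Ear1, a ribonuclease of eosinophils, lost its call without NZB/W-F1 replicate 1 or 2 or either C57BL/6 library, and Pnp2 without C57BL/6 replicate 1.

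**Figure D4:**
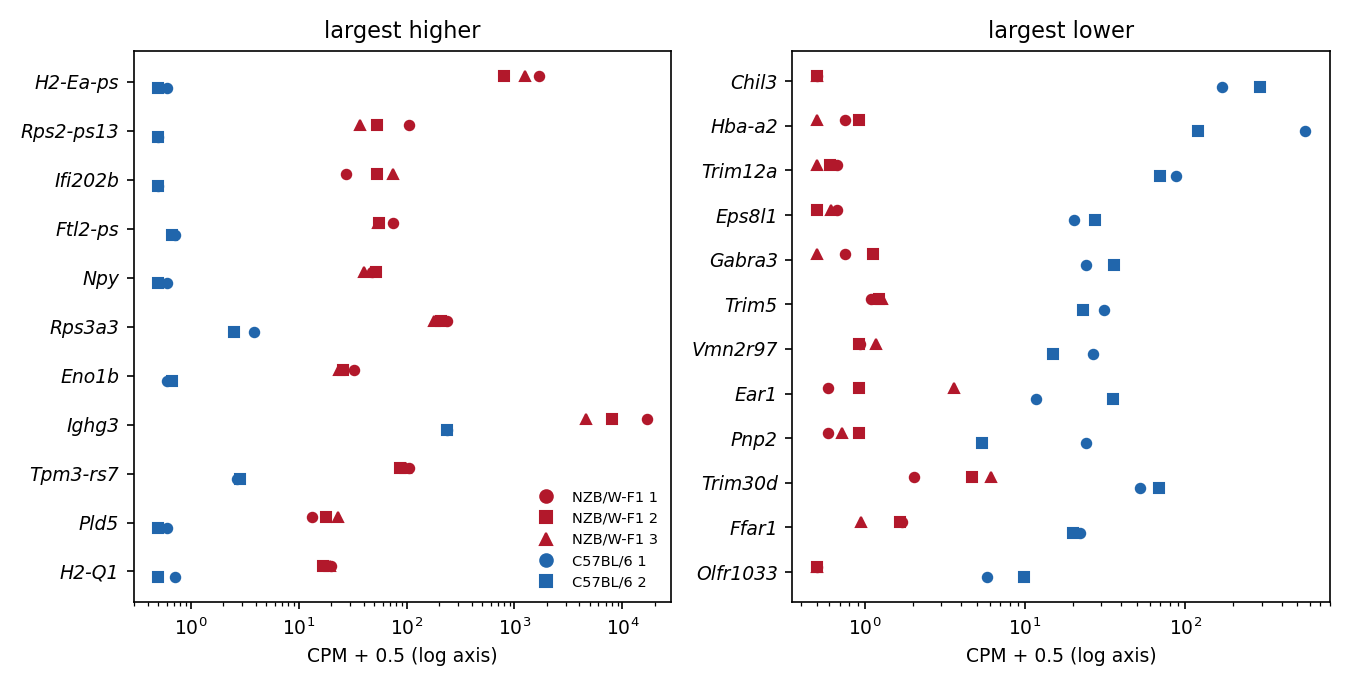
CPM + 0.5 on log axes in each 6-month spleen library for 11 of the genes with the largest higher and the 12 with the largest lower differences by the naming rule, with NZB/W-F1 in red and C57BL/6 in blue. The groups do not overlap in any of these genes, and Ifi202b, Rps2-ps13, Chil3 and Olfr1033 have no read in 1 of the 2 groups.

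Set beside the younger spleens, many of the 6-month differences were already present. At 1 month, 4449 genes differed between the strains (29.4%), and at 3 months 1500 (9.92%). Of the 598 genes higher at 6 months, 278 (46.5%) were also higher at 1 month, 403 (67.4%) at 3 months and 251 at both ages. Of the 198 lower genes, 157 (79.3%) were lower at 1 month and 141 (71.2%) at 3 months. Over all genes, 13.4% were higher at 1 month and 6.81% at 3 months, and lower were 2423 of the 15122 at 1 month and 3.11% at 3 months. Each age has its own control spleens. The 1-month C57BL/6 spleens belong to a later block of sample numbers in the series than the 1-month NZB/W-F1 spleens. All 6-month spleens are in the earlier block and all 3-month spleens in the later one. Strain and block therefore cannot be told apart at 1 month, nor in the change from 1 to 6 months. At neither younger age did 86 of the 598 (14.4%) and 16 of the 198 (8.08%) reach an unadjusted p of 0.05, against 6415 of the 15122 genes tested (42.4%).

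The gene groups differed in their values by age. The median log2 fold change of the antibody constant genes was 0.50 at 1 month, 0.83 at 3 months and 1.94 at 6 months, with 5, 4 and 8 of 12 higher and 1, 1 and 0 lower. That of the plasma cell genes was 0.06, 0.82 and 1.51, with 4, 10 and 14 of 19 higher and 3, 0 and 0 lower. That of the germinal centre genes was -0.30, 0.07 and 1.17, with 3, 2 and 6 of 16 higher and 3, 0 and 0 lower. The megakaryocyte genes were different in order, with medians of 0.43, 2.90 and 1.88 and 1, 15 and 10 of 16 higher, and none was lower at any of the 3 ages. Ighg3 had log2 fold changes of 2.42, 4.39 and 5.17 at the 3 ages, Ighg2c 4.998, 3.46 and 3.55, Mzb1 -0.17, 0.22 and 1.74, and Tubb1 1.04, 3.43 and 2.21.

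**Figure D5:**
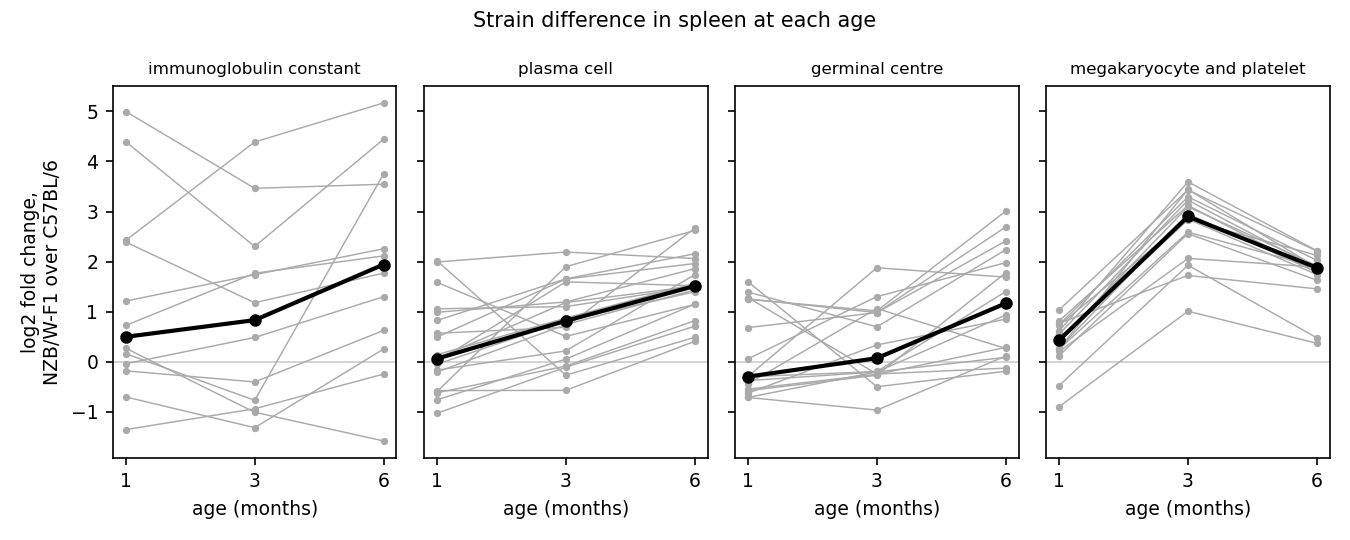
Log2 fold change of NZB/W-F1 over C57BL/6 in spleen at 1, 3 and 6 months for the members of 4 gene lists, with 1 grey line per gene and the median in black. The median is highest at 6 months for the antibody constant (1.94), plasma cell (1.51) and germinal centre (1.17) lists, and at 3 months for the megakaryocyte list (2.90).

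Whether the strain difference itself differed between ages was tested gene by gene. Between 6 and 3 months no gene passed with limma or with edgeR, and 1521 genes had an unadjusted p under 0.05 with limma. NZB/W-F1 replicate 2 of 3 months held 195516 CPM of the 24 pancreatic enzyme genes, and this library enters every 3-month value given here. The count was 171 without NZB/W-F1 replicate 1 of 3 months and 14 without C57BL/6 replicate 2 of 3 months. Between 6 months and 1 month, 148 genes passed (0.979%), against a median shift of 0.16 over all genes. From 1 to 6 months the signed log2 fold change moved upward in 128 of them and downward in 20. An upward move is not always a larger difference. The log2 fold change of Il5ra went from -1.83 to 0.74, and that of Clec4g from 0.45 to -1.99. The upward moves (0.846% of all genes) included 7 of the 19 plasma cell genes and 3 of the 16 germinal centre genes. Among the 11 SLAM family genes 3 moved upward. The log2 fold change of Mzb1 was larger at 6 months by 1.91 (SE 0.29, limma, adjusted p = 0.0159), and that of S1pr2 by 1.92 (SE 0.41, limma, adjusted p = 0.0444).

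This second count moved with single libraries. It was 2 without C57BL/6 replicate 1 of 6 months, 15 without NZB/W-F1 replicate 3 of 6 months, 66 without replicate 1 and 2362 without replicate 2 of that group, and 258 without C57BL/6 replicate 2 of 6 months. It was 16, 24 and 27 without NZB/W-F1 replicate 1, 2 or 3 of 1 month, and 7, 1483 and 51 without C57BL/6 replicate 1, 2 or 3 of 1 month. At 1 month, 31 of the 31 cell cycle genes and 32 of the 39 erythroid genes were higher in NZB/W-F1, and C57BL/6 replicate 1 of that age held 49804 CPM of pancreatic enzyme genes. The part of these differences in the count was not tested.

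In kidney and brain the tables were scaled separately. The NZB/W-F1 organs carry the same replicate numbers, which may or may not mean the same animals, so values are only set side by side. Over all genes 5.69% differed in kidney (3.46% higher, 2.23% lower) and 4.34% in brain (2.11% higher, 2.23% lower). Of the 598 genes higher in spleen, 378 were tested in kidney and 164 of these were higher there, and 348 were tested in brain and 116 were higher. Of the 198 lower genes, 56 of 116 were lower in kidney and 44 of 98 in brain. Ighg3 had a log2 fold change of 4.97 in kidney, and H2-Ea-ps and Ifi202b had 7.86 and 4.08; all 3 passed there. Xbp1, S1pr2 and Creld2, by contrast with their spleen values, had 0.39, 0.37 and 0.43 in kidney and -0.05, -0.16 and -0.03 in brain and passed in neither. By list, 6 of 9 antibody constant genes and 5 of 13 B cell genes were higher in kidney and none lower. Of 18 plasma cell genes 3 were higher there and 1 lower, and of 11 germinal centre genes none passed. In brain 1 of 3 antibody constant genes was higher and 1 lower, and none of 11 plasma cell genes passed.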

How the data were processed

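RNA from the organs was extracted with TRIzol and sequenced from TruSeq RNA Sample Prep Kit v2 libraries, a kit that does not mark strand, per the labels' protocols. The submitters' processing notes name STAR 2.6, HTSeq, edgeR and mm10. The deposited values are CPM on a signal scale that the authors normalised, 1 table per organ. All spleen values came out as whole reads (100% within 0.01 of a read), and the recovered counts were used for depth (5696124 to 11998550 reads here) and for edgeR 4.0.16. No column was left unused (0). Because the values are normalised and not raw counts, limma 3.58.1 in R 4.3.3 was fitted on log2(CPM + 0.5), with a trend, to 6 group means over all 16 spleens. A filter of 1 CPM in 2 libraries removed no gene. Kidney and brain were fitted likewise, with 3 libraries in the filter, after 3 counter rows had been left out of the kidney table.

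Of the 15122 spleen genes, 15115 matched the GRCm38 annotation. The share of 31-base words of a gene's transcripts found in other genes was computed from it, and it marks genes whose reads could be split among copies. Genes were named by a rule: the 12 largest differences in each direction among called genes with a group mean of at least 5 CPM and no overlap (predicted genes and receptor segments passed over, which left 300 higher and 113 lower genes), up to 4 members per list by p, and for the change between ages the 6 largest in each direction. Further members of lists, the genes that pseudogenes copy, and the other Trim genes were named after their values were seen. Some genes that the rule or the lists hold are not reported here. The comparison and the gene lists were chosen with earlier results of these data known. Counting intervals are exact and at 95%, and cover counting error only. The limma and edgeR fits of the 6-month spleen comparison were also run on simulated spleen counts with the same dispersion in every gene. The simulation had no outlying library. The changes between ages and the kidney and brain fits were not checked this way. The alternatives tried are other scaling, pseudocount, filter, test and samples.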

Additional observations from a re-analysis of the deposited data

Results flagged for a closer look

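The strain difference in spleen changed between 1 and 6 months in 26 of the named genes, by a test of the change itself (limma, adjusted p under 0.05). All 26 lost this call under at least 1 alternative, so the values are descriptions of these libraries. Values are the log2 fold change at 6 months minus that at 1 month. Slamf7, Cx3cr1, Il5ra, Chst10 and Lrrc20 did not pass at 6 months itself (limma, adjusted p 0.051 to 0.57). Their log2 fold changes were 0.71, 0.90, 0.74, -0.59 and -0.48 at 6 months. At 1 month they were -1.03, -1.05, -1.83, 1.83 and 1.56, of the opposite sign.

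Among plasma cell genes and the proteins of their secretory apparatus the change was 1.91 for Irf4, 1.91 for Mzb1, 1.74 for Slamf7, 1.64 for Edem1, 1.45 for Edem2, 1.45 for Xbp1, 1.44 for Pou2af1 and 0.87 for Ssr4. Among germinal centre genes it was 1.98 for Gcsam, 1.92 for S1pr2 and 1.48 for Basp1. Slamf1 changed by 1.63, Slamf9 by 2.61 and Bhlhe41, a transcription factor of B1 B cells, by 2.36.

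In T cell lists Lag3 changed by 2.21 and Ikzf2 by 1.68. Cx3cr1, a chemokine receptor of monocytes, changed by 1.94, and Il5ra, a chain of the interleukin 5 receptor, by 2.56. Fcer1a went the other way, by -2.39. Other changes named by the rule were 3.66 for the chemokine Cxcl14, 3.28 for Smpdl3b, 2.66 for the apolipoprotein Apoc1 and 2.59 for the adhesion molecule Nrcam. Changes downward were -2.44 for the lectin Clec4g, -2.43 for the sulfotransferase Chst10 and -2.04 for Lrrc20. Over all genes the median change was 0.16 (0.07 with median-of-ratios scaling). At 1 month the erythroid and cell cycle genes were higher in NZB/W-F1, and their part in these changes was not tested. The 1-month spleens of the strains also come from different blocks of sample numbers, which cannot be told apart from strain.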

How the results depend on the processing

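Of the 1759 values of the 126 genes followed at 6 months under the alternatives, 1545 kept direction and call, 191 lost the call, 12 gained it and 11 changed sign. A gene not called counts as kept where it stayed uncalled. The setting without the filter of 1 CPM repeats the main fit, since that filter removed no gene, so it keeps every value by construction. Of the 101 called genes 46 kept their call throughout. The 796 genes called at 6 months became 824 with median-of-ratios scaling, 762 with a pseudocount of 0.1, 597 with at least 5 CPM, 715 with edgeR, 774 without 2 spleens of other ages that hold over 10000 CPM of pancreatic enzymes, and 601 without NZB/W-F1 replicate 3 as well. The last 2 settings and the stricter filter were chosen after seeing the data. The 2 spleens of other ages were C57BL/6 replicate 1 of 1 month and NZB/W-F1 replicate 2 of 3 months. With only the compared libraries they were 517 (398 higher, 119 lower), and with 1 library left out 392 to 727 (287 to 539 higher, 105 to 188 lower).

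The count of genes whose difference changed since 3 months, 0 in all, ran from 0 to 171 with 1 library left out. Of these, 0 to 37 moved upward and 0 to 134 downward. The 148 genes that changed since 1 month became 88 with edgeR (78 upward, 10 downward). In a fit of only the compared libraries they were 39 (36 and 3). They were 12 without the 2 spleens with pancreatic RNA (12 and 0) and 0 without NZB/W-F1 replicate 3 as well (0 and 0). With 1 library left out they ran from 2 to 2362 (2 to 1013 upward, 0 to 1349 downward). The cause was not tested. Of the 494 values of the 26 such genes 250 kept their call and 244 lost it. The 250 include the setting without the filter, which repeats the main fit.

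The correlation of residuals between spleens of the same replicate number was 0.03 and -0.40. For NZB/W-F1 replicate 3 with C57BL/6 replicate 1 it was -0.44. The residuals of 2 C57BL/6 libraries are equal and opposite, so these values cannot show whether the numbers pair the spleens. The replicate block gave 775 genes at 6 months and 31 changed since 1 month (29 and 2). Genes that were not called and changed sign were Cd74 (-0.18 to 0.28 with 1 library left out, and -0.06 without NZB/W-F1 replicate 3), H2-Aa (-0.31 to 0.19), H2-Eb1 (-0.10 to 0.49), Ighd (-0.47 to 0.12), Iglc3 (-0.17 to 0.68), Mki67 (-0.73 to 0.70) and Ms4a1 (-0.21 to 0.10, and 0.026 with the replicate block). A group of 2 controls limits every count, and genes near the floor of 3 reads cannot be ranked.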
